A study of Mus musculus with 3 samples.

Results

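The feedback and the nuclear output of Wnt signalling were followed through the genes Axin2, Lef1, Tcf7, Sp5, Sp8, Rnf43, Znrf3, Nkd1, Nkd2 and Lgr5. These 10 genes, of 19802 tested, were chosen by name, and their probes were found through the transcript accession printed for each probe on the array. They had 16 probes, 2 each for 6 genes and 1 each for 4, and all 10 genes passed the filter on dim probes with 15 of those probes.

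Mouse embryoid bodies lacking Hopx (Hopx-/-, null below) were set against those that kept 1 copy (Hopx+/-, heterozygous below) on day 8 of differentiation towards heart muscle. Hopx is an unusually small homeodomain factor that does not itself bind DNA. There were 3 biological replicates, each a 2-colour Agilent array on which both genotypes were hybridised together, so every ratio comes from within an array. No wild-type culture was among the samples, so every difference is between no copy and 1 copy. The stem cells of both genotypes came from blastocysts of embryonic day 3.5, were started on STO feeder cells with LIF and a MEK1 inhibitor at 50 µM, and were kept on inactivated mouse embryonic fibroblasts in 15% serum with LIF. Embryoid bodies of both genotypes were formed in hanging drops of 20 µl in 10% serum without LIF, then held in suspension, and then plated on gelatin in a serum-free medium with VEGF (5 ng/ml), bFGF (10 ng/ml), FGF10 (12.5 ng/ml), ascorbic acid (1 mM) and Glutamax (2 mM). No Wnt protein, Wnt inhibitor or kinase inhibitor is listed for the differentiation medium. The labels do not say how many stem cell lines each genotype had, nor which part of Hopx was removed. The p-values therefore measure the spread between these cultures, and a difference between genotypes cannot be told apart from a difference between lines.

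Wnt proteins bind Frizzled receptors with an Lrp coreceptor and stop a cytoplasmic destruction complex from degrading beta-catenin. Beta-catenin then enters the nucleus and joins TCF/LEF factors on DNA, and several of the genes it switches on encode proteins that damp the pathway again. In the mouse embryo and in embryoid bodies, Wnt signalling is needed to form the primitive streak and mesoderm, and it has to be low again for cardiac progenitors to form muscle.

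The promoter windows below are shown for the 2 genes that rose most, for the gene that fell most, and for Axin2, whose transcript is widely used to read the pathway. They are RefSeq windows on build GRCm38.p6, from 250 bases before to 50 bases after an annotated start, 5′ to 3′ on the gene's strand, and all 4 genes lie on the plus strand. Capitals mark CTTTG followed by AA, AT, TA or TT, on either strand, the core that TCF/LEF factors prefer. The words searched share their first 5 letters, so only 1 can start at a given base of a strand.
Sp5, chr2:70474673-70474972: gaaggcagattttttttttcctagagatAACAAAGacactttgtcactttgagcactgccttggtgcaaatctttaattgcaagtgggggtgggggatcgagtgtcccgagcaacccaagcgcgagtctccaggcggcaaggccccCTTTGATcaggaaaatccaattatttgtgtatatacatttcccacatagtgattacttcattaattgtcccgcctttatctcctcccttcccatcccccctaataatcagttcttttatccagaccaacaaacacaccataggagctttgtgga
Sp8, chr12:118846983-118847282: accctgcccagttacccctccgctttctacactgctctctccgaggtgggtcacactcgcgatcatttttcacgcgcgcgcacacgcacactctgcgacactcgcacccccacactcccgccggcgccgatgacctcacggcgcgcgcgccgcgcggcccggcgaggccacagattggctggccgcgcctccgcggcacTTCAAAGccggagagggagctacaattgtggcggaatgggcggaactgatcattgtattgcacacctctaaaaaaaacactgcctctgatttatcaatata
Rnf43, chr11:87662837-87663136: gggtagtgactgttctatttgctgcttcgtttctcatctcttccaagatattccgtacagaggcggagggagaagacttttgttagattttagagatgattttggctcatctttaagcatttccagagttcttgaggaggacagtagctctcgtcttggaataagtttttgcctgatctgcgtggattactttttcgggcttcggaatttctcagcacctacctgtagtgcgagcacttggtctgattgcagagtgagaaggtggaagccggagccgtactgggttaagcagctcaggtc
Axin2, chr11:108920099-108920398: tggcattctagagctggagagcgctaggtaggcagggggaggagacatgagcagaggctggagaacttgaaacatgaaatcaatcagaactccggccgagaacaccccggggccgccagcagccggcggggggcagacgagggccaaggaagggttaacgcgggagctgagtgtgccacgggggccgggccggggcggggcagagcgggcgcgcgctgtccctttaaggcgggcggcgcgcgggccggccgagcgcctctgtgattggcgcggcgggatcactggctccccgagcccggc

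The Sp5 window held 2 such words. One was CTTTGAT on the gene's strand, whose first base lay at -104 from the start site, and the other was CTTTGTT on the other strand, at -222. The Sp8 window, the second of 3 in the table, held CTTTGAA on the other strand at -51. The windows of Rnf43 and Axin2 held none of these letters, which says nothing of sites outside the windows. In all, 8 of the 10 genes had 15 windows in the table, and 3 windows (20.0%) held a word, the third being a window of Lef1. Of all 32851 windows, 16.9% did, so by window the share was near that of promoters in general. Counted by gene, 3 of the 8 held a word in at least 1 window, where 18.9% of all 27025 genes with a window did. Neither difference was tested. The count by gene is not like for like, since the 8 genes had 15 windows and the 27025 genes had 32851. A gene with more windows has more places for a word. The windows of Axin2 and Sp8 shown had 2 and 1 copies of the GC box GGGCGG, which Sp factors are known to bind, on either strand, and 35.7% of all windows held at least 1. The Sp5 window and both windows of Rnf43 in the table had none.

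All signed values are log2 ratios of null over heterozygous. Per the labels, null RNA carried Cy5 on every array, yet replicate 3 ran opposite to the others, at r = -0.903 to replicate 1 and r = -0.901 to replicate 2, where replicates 1 and 2 gave r = 0.939 (across probes, which are not independent replicates). Replicate 3 was therefore turned, as it is in the values the authors deposited. Hopx, the targeted gene, then had ratios of -2.98, -2.97 and -3.45, and with replicate 3 left as labelled no gene was called by limma, 61 genes having an unadjusted p under 0.05. Without replicate 3, 60.1% of all genes were called, and the 10 genes gave 6 higher and 3 lower calls, as they did with it. Between 61.9% and 72.9% of spots were well above background in a channel, and having only 3 arrays sets the precision.

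In null embryoid bodies 6 of the 10 genes rose (Sp8, Sp5, Lgr5, Lef1, Tcf7 and Axin2), 3 fell (Rnf43, Nkd2 and Znrf3) and Nkd1 did not pass the test. A call is an adjusted p under 0.05 by limma's moderated test of the 3 ratios against 0, adjusted by Benjamini-Hochberg over all probes tested. By that rule 60.3% of all genes were called, 30.2% higher and 30.1% lower, so a call alone is common on these arrays. A rise of at least 2-fold was called for 2 of the 10 genes and a fall of that size for 1, where 4.87% of all genes rose and 6.03% fell that much. With the scanner software's processed signals, 4 of the 10 rose (11.1% of all genes) and 2 fell (11.4% of all genes) that much, and with median centring without loess 4 rose (10.3% of all genes). The median ratio of the 10 genes was 0.47, and that of all genes was 0.0034. All 10 genes had ratios of 1 sign on the 3 arrays, as 76.1% of all genes did. The null and heterozygous intensities did not overlap for 8 of the 10 (52.6% of all genes), with 5 above (26.3% of all genes) and 3 below (26.3% of all genes). Since each array holds a mix of cells, a lower signal from fewer cells of a type and from less RNA per cell cannot be told apart.

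**Figure D1:**
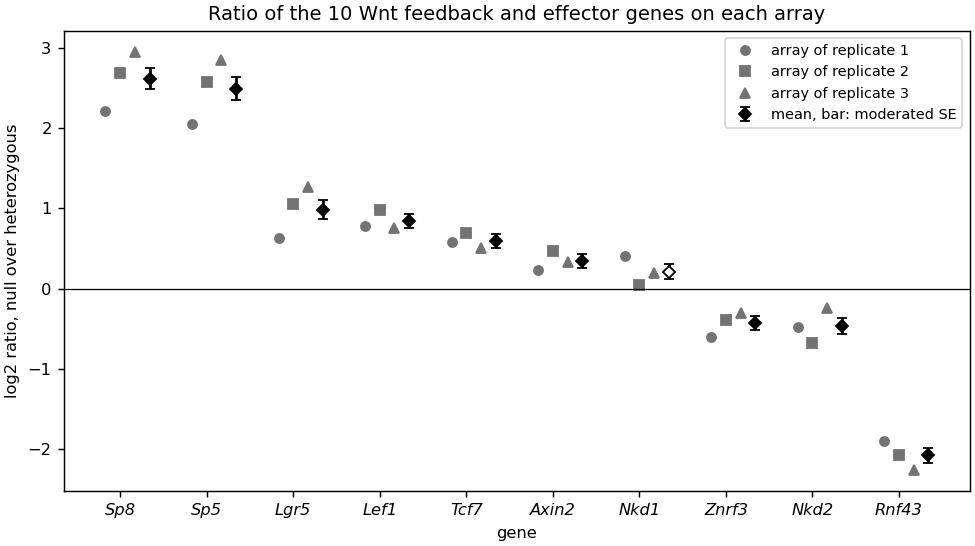
Log2 ratio of null over heterozygous (y axis) for each of the 10 genes (x axis), with grey symbols for the 3 arrays and diamonds for the mean with its moderated SE (open where the adjusted p is not under 0.05). Sp8 and Sp5 stand highest at 2.62 and 2.49, Rnf43 lowest at -2.08, and only Nkd1 has an open diamond.

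Among the 10 genes, the nuclear factors of the Sp family gave the largest rises. Sp5 and Sp8 encode related zinc finger factors, and in the mouse embryo both are switched on by Wnt signalling in the primitive streak and tailbud. Sp5 had normalized intensities of 1804, 2949 and 3239 in null embryoid bodies, against 434, 492 and 450.4 in heterozygous ones (arrays of replicates 1, 2 and 3, in arbitrary units that include an offset of 50). The lowest null culture stood well above the highest heterozygous one. The ratio of Sp5 was 2.49 (SE 0.14, n = 3 arrays, adjusted p = 2.12e-06 by limma), a 5.64-fold rise. Sp8 had intensities of 607, 712 and 828 in null embryoid bodies, against 130.4, 110.3 and 107 in heterozygous ones. Again no values overlapped, and on both genes the array of replicate 1 gave the smallest ratio (2.05 for Sp5 and 2.22 for Sp8). The ratio of Sp8 was 2.62 (SE 0.13, n = 3, adjusted p = 1.28e-06 by limma), a 6.15-fold rise. The ratio of Sp8 was 3.65 with processed signals and 1.32 when its 2 probes were averaged. The other Sp factors did not do the same. Of 5 tested of 7 listed, Sp2 rose, at 0.33 (SE 0.10, adjusted p = 0.0161 by limma). The other 4 did not pass, with Sp4 lowest at -0.18 and Sp6 highest at 0.17 (both named after their values were seen). The call of Sp2 was lost without replicate 2 (adjusted p = 0.0699) and without replicate 3 (adjusted p = 0.0530). Without replicate 1 Sp4 was called lower, at -0.35 (adjusted p = 0.0360 by limma), and without replicate 3 Sp6 was called higher, at 0.34 (adjusted p = 0.0112).

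Both TCF/LEF factors among the 10 genes rose, by less than 2-fold at their brightest probes in the main setting. Lef1 and Tcf7 are DNA-binding partners of beta-catenin and are themselves Wnt targets in several tissues. Lef1 had intensities of 2972, 3751 and 2867 in null embryoid bodies, against 1734, 1896 and 1697 in heterozygous ones. The groups did not overlap, and the ratio was 0.84 (SE 0.09, n = 3, adjusted p = 6.54e-05 by limma), or 1.24 with median centring without loess. Tcf7 had intensities of 473, 528 and 563 in null embryoid bodies, against 315, 326 and 395 in heterozygous ones. These groups did not overlap either, and the ratio was 0.60 (SE 0.08, n = 3, adjusted p = 0.000371 by limma). The remaining TCF/LEF genes went apart. Tcf7l2, a factor that can activate or repress Wnt targets, fell by 1.32 (SE 0.09, adjusted p = 5.45e-06 by limma), with ratios of -1.43, -1.18 and -1.36, and its next probe fell by 0.77 (SE 0.09). Tcf7l1, mainly a repressor in embryonic stem cells, was higher by 0.27 (SE 0.09, adjusted p = 0.0234 by limma), and that call was lost without replicate 2 (adjusted p = 0.0819) and without replicate 3 (adjusted p = 0.0751).

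**Figure D2:**
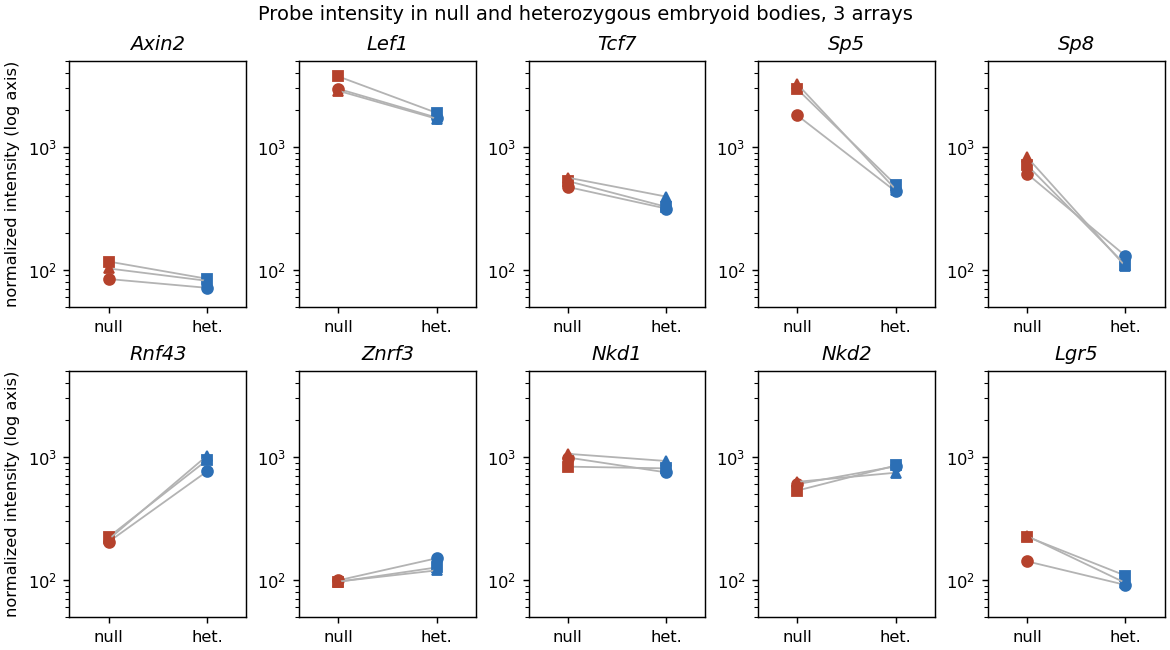
Normalized probe intensity (y axis, log scale, arbitrary units) in null (left, red) and heterozygous (right, blue) embryoid bodies for each of the 10 genes, with a line joining the 2 channels of an array. The groups overlap for Axin2 and Nkd1 and not for the other 8 genes.

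At the membrane, the receptor and the enzymes that oppose each other moved in opposite directions. Rnf43 and Znrf3 are related ubiquitin ligases that remove Frizzled receptors from the cell surface, and Lgr5 is a receptor for R-spondins, which take these ligases out of action. Rnf43 had intensities of 205, 224 and 214 in null embryoid bodies, against 765, 945 and 1026 in heterozygous ones. The null values lay close together and far below the heterozygous ones, and the ratio was -2.08 (SE 0.09, n = 3, adjusted p = 8.33e-07 by limma), a 4.23-fold lower signal. Znrf3 had intensities of 99.2, 96.5 and 97.1 in null embryoid bodies, against 150.2, 126 and 119.6 in heterozygous ones. It was dim in both groups but did not overlap, and the ratio was -0.43 (SE 0.09, n = 3, adjusted p = 0.00345 by limma). In the authors' deposited table its ratios were -0.44, -0.32 and -0.04, and it was not called there (adjusted p = 0.104 by limma). Lgr5 had intensities of 142, 225 and 228 in null embryoid bodies, against 91.1, 109 and 94.8 in heterozygous ones. The null values were all higher, that of replicate 1 least so, and the ratio was 0.99 (SE 0.12, n = 3, adjusted p = 0.00016 by limma). With processed signals the ratios of Lgr5 were 1.87, 1.91 and 2.17.

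Around these 3 genes, 17 of 18 listed R-spondins and receptors were tested, and 9 rose (as 30.2% of all genes did) and 4 fell (as 30.1% of all genes did), with a median of 0.33. Rspo2 and Rspo4 passed the filter through the null channel alone. With both channels required above background 15 were tested, and 7 rose and 4 fell, with a median of 0.05. The authors' deposited values gave 6 higher and 4 lower at a median of 0.09, and median centring without loess 9 higher and 1 lower at 0.44. Median centring called 8535 of all 19802 genes higher and 3015 lower. Rspo2 rose by 1.77 (SE 0.11, adjusted p = 3.57e-06 by limma) although its heterozygous signal was well above background on just 1 array of 3. Rspo1 was at 0.99 (SE 0.09), Rspo3 at 0.58 (SE 0.10) and Rspo4 at least 1.21-fold higher (adjusted p = 0.00813 by limma), its heterozygous signal being not well above background on all 3 arrays. The call of Rspo4 was lost under median centring without loess (adjusted p = 0.106), in the authors' deposited values (adjusted p = 0.573) and without replicate 1 (adjusted p = 0.0613). Lgr4, the R-spondin receptor related to Lgr5, was at 0.05 (SE 0.08, adjusted p = 0.597 by limma), with ratios of 0.10, -0.00 and 0.07. Among Frizzled receptors Fzd10 and Fzd6 rose by 1.55 (SE 0.09) and 1.53 (SE 0.09), and Fzd4 fell by 1.09 (SE 0.09). The coreceptors Lrp6 and Lrp5 stood at -0.80 (SE 0.12, adjusted p = 0.000572 by limma) and -0.35 (SE 0.09, adjusted p = 0.00771). Neither of these falls passed with median centring without loess, where the ratios were -0.41 for Lrp6 and 0.01 for Lrp5, and Lrp5 also missed the threshold without replicate 1 (adjusted p = 0.0659). The dimmer Lrp6 probe stood at -0.11 (SE 0.09) and did not pass (adjusted p = 0.311 by limma). Rspo1, Rspo3, Rspo4, Lrp5 and Lrp6 were named after their values were seen.

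The cytoplasmic feedback genes had small ratios. Axin2 encodes a scaffold of the destruction complex, and Nkd1 and Nkd2 encode related proteins that bind Dishevelled, the adaptor below Frizzled. Axin2 had intensities of 84.2, 117 and 103 in null embryoid bodies, against 71.4, 84.6 and 81.4 in heterozygous ones. The null value of replicate 1 lay below the highest heterozygous value, so the groups overlapped, although the null value was the higher within each array. The ratio was 0.35 (SE 0.09, n = 3, adjusted p = 0.00807 by limma). This call was lost without replicate 2 (adjusted p = 0.0727), when each channel was fitted as its own sample, with no replicate block (adjusted p = 0.0960, a fit that called 8 of the 10 and 41.1% of all genes) and in the authors' deposited values (adjusted p = 0.158). Axin2 passed the filter through its null channel alone, being well above background on 2 of the 3 arrays in heterozygous embryoid bodies. With processed signals its ratio was 1.05.

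Nkd1 had intensities of 991, 836 and 1063 in null embryoid bodies, against 751, 809 and 929 in heterozygous ones. The groups overlapped, and the ratio of 0.21 (SE 0.09, n = 3) did not pass (adjusted p = 0.0811 by limma). It passed with median centring without loess, at 0.55 (adjusted p = 0.00683), a setting in which the median of all genes stood at 0.23. Nkd2 had intensities of 602, 534 and 629 in null embryoid bodies, against 841, 854 and 746 in heterozygous ones. No values overlapped, and the ratio was -0.47 (SE 0.10, n = 3, adjusted p = 0.00374 by limma). Median centring without loess ended that call, at -0.15 (adjusted p = 0.429).

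For 5 genes a second probe was also tested, and for Nkd2 it went the other way. The dimmer Nkd2 probe had intensities of 186, 185 and 157 in null embryoid bodies, against 122, 116 and 115 in heterozygous ones, which is a rise of 0.58 (SE 0.09, adjusted p = 0.000524 by limma). Both probes carry the same transcript accession, and the exons that each covers were not analysed here. The direction of Nkd2 is therefore not settled by these arrays. The dimmer probes of Lef1 and Tcf7 rose as the brighter ones did, by 1.11 (SE 0.12) and 0.29 (SE 0.08). The second Sp8 probe had intensities of 88.9, 83.6 and 73.9 in null embryoid bodies, against 93.0, 71.9 and 79.2 in heterozygous ones, and did not pass (ratio 0.02, adjusted p = 0.884 by limma). The second Nkd1 probe was dim as well and stood at -0.04 (adjusted p = 0.670). The second Axin2 probe did not pass the filter, with ratios of -0.28, 0.10 and 0.01.

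**Figure D3:**
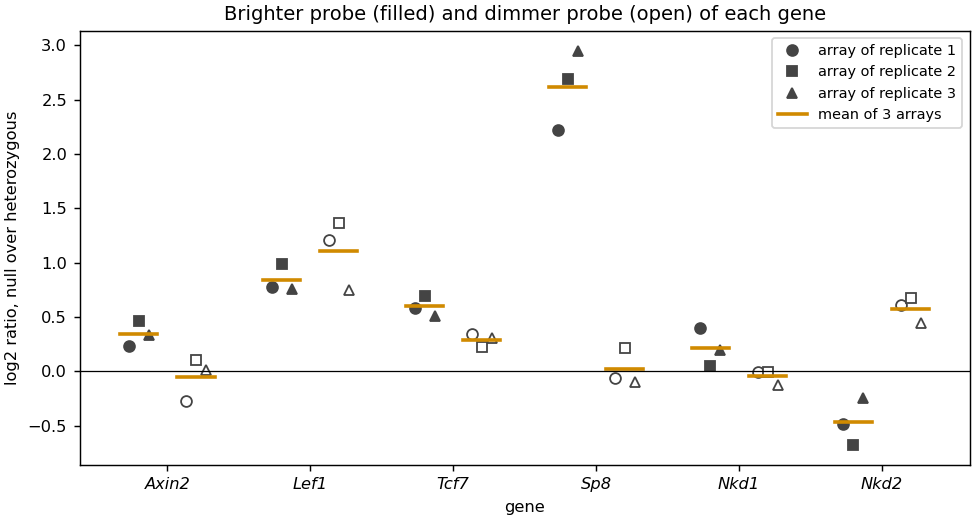
Log2 ratio of null over heterozygous (y axis) for the brighter (filled) and dimmer (open) probe of the 6 genes with 2 probes (x axis), 1 symbol per array, with a line at the mean. The probes lie on opposite sides of 0 for Nkd2, at -0.47 and 0.58, and the dimmer Sp8 probe lies near 0.

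The size of some ratios differed between ways of processing. With the scanner software's processed signals, Znrf3 stood at -1.16, Axin2 at 1.05 and Lgr5 at 1.98, each more than 1.5 times its size in the main setting. The brighter Lef1 probe moved little, to 0.91. These signals differ from the main setting in background correction, offset and normalization together, and the part of each was not tested. Processed signals called 9 of the 10 genes (60.6% of all genes), median centring without loess 9 (58.3% of all genes), and the authors' deposited values 7 (41.3% of all genes). Rnf43 stayed between -2.48 and -1.77 and Sp5 between 2.13 and 2.85 over the alternatives other than replicate 3 as labelled. An ordinary t statistic, which shares no spread between probes, called 20.2% of all genes and 5 of the 10, namely Lef1, Tcf7, Sp5, Sp8 and Rnf43, with adjusted p from 0.0361 to 0.0480.

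**Figure D4:**
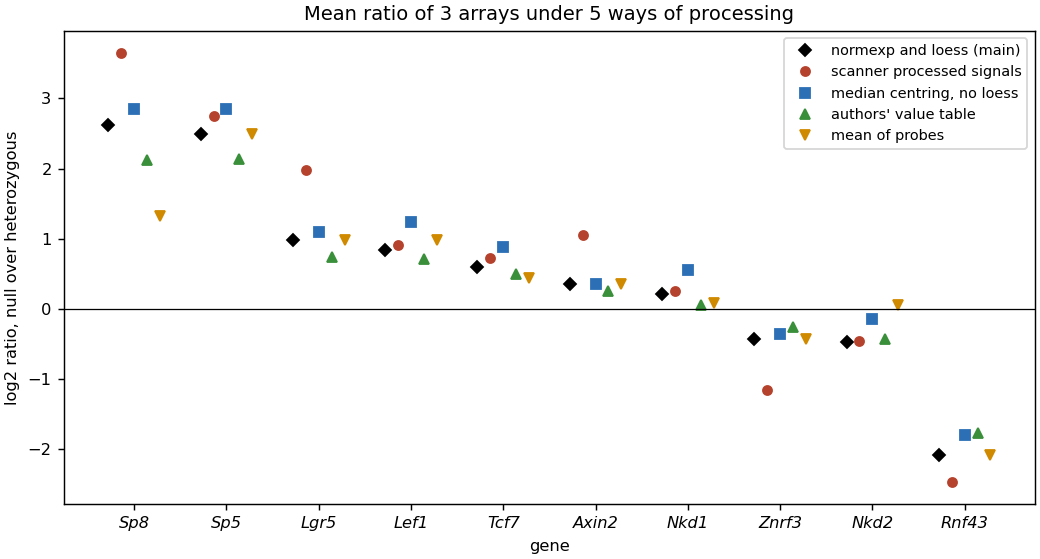
Mean log2 ratio of null over heterozygous over the 3 arrays (y axis) for each of the 10 genes (x axis) under 5 ways of processing. Signs agree for 9 genes, and Nkd2 crosses 0 when its probes are averaged, at 0.05.

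Beta-catenin itself (Ctnnb1) was at 0.09 (SE 0.09, adjusted p = 0.415 by limma), with ratios of 0.17, -0.02 and 0.11. With median centring without loess it was called higher, at 0.49 (adjusted p = 0.00578), where all genes had a median of 0.23. Of 16 listed partners of beta-catenin in the nucleus 15 were tested. Of these, 3 rose (30.2% of all genes did) and 5 fell (30.1% of all genes did), with a median of -0.15 that became 0.18 with median centring. Without replicate 1, 3 of them fell, and in the authors' deposited values 1 rose and 2 fell. Averaging the probes of each gene gave 4 higher and 2 lower, at a median of -0.04. Besides Tcf7l2, the coactivator Bcl9 fell by 0.75 (SE 0.12), and the Groucho corepressors Tle4 and Tle3 rose by 0.72 (SE 0.11) and 0.44 (SE 0.09). The dimmer Bcl9 probe stood at -0.15 and did not pass (adjusted p = 0.152 by limma). Tle3 was not called in the authors' deposited values (adjusted p = 0.0967 by limma), nor was Tcf7l1 (adjusted p = 0.0798). Of the same family, Tle1 stood at -0.27 (adjusted p = 0.0246 by limma) and Tle5 at -0.34 (adjusted p = 0.00813), both named after their values were seen. With median centring without loess Tle1 was at 0.07 and Tle5 at 0.11, neither called, and averaging the probes of Tle1 gave 0.39. The next brightest Tle1 probe was called higher, at 1.3976 (adjusted p = 9.62e-06 by limma). A dimmer one was also called higher, at 0.467 (adjusted p = 0.00197), and the dimmest, at -0.0185, did not pass (adjusted p = 0.897). The direction of Tle1 is therefore not settled by these arrays. The dimmer Tle5 probe stood at -0.0367 and did not pass (adjusted p = 0.748 by limma). All 18 listed genes of the destruction complex and its cofactors were tested. Of these, 4 rose (30.2% of all genes did) and 5 fell (30.1% of all genes did), with a median of 0.05. With median centring 12 rose and 3 fell, at a median of 0.44, where 8535 of all 19802 genes were called higher and 3015 lower. Btrc, which marks phosphorylated beta-catenin for degradation, rose by 1.17 (SE 0.09), and Frat1, which binds Gsk3, rose by 0.83 (SE 0.09). Dvl3, a Dishevelled protein, fell by 1.16 (SE 0.12), and Gsk3b, the kinase that phosphorylates beta-catenin, fell by 0.74 (SE 0.08). The adjusted p by limma was at most 0.00299 for each gene of this paragraph said to rise or fall.

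**Figure D5:**
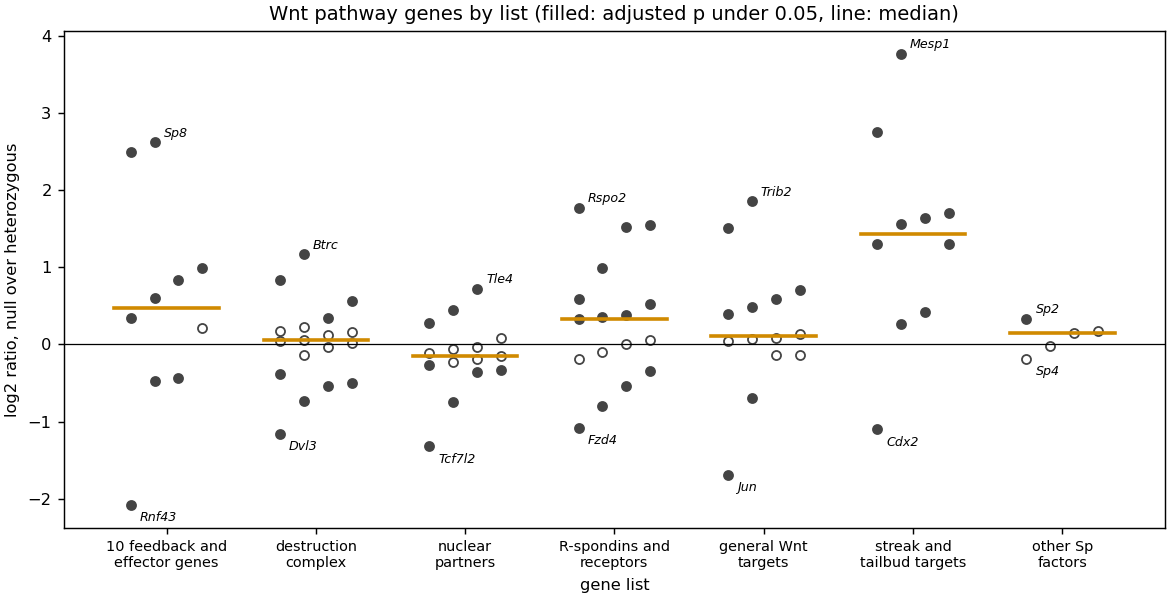
Log2 ratio of null over heterozygous (y axis) for the 10 genes and for 6 other lists of the pathway (x axis), 1 circle per gene, filled where called, with a line at the list's median. The list of streak and tailbud targets has the highest median, at 1.43, and the lowest gene in the plot is Rnf43 at -2.08.

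Among other Wnt targets, the genes tested from the streak and tailbud list were mostly higher. Of 10 tested of 13 listed, 9 rose (as 30.2% of all genes did) and 1 fell, with a median of 1.43, beside 0.0034 for all genes, and 8 rose whichever replicate was left out. Msgn1, Cdx4 and Wnt3a were not tested, being well above background on no array in either group. With no filter on dim probes all 13 were tested, and 8 rose and 1 fell, with a median of 1.30. Mesp1, which marks nascent cardiac mesoderm, rose by 3.76 (SE 0.09), and Evx1, a factor of the posterior streak, rose by 1.64 (SE 0.08). T, which encodes Brachyury, was at least 6.72-fold higher in null embryoid bodies (adjusted p = 1.49e-05 by limma), with ratios of 1.90, 3.26 and 3.08. Wnt8a, a streak Wnt ligand, was at least 3.26-fold higher (adjusted p = 9.56e-06 by limma), with ratios of 1.36, 1.69 and 2.06. In heterozygous embryoid bodies neither was well above background at all, so both passed the filter through the null channel alone. With both channels required above background 8 of the list were tested, and 7 rose and 1 fell, with a median of 1.30. The 1 gene that fell was Cdx2, a caudal factor also made in trophectoderm, at -1.10 (SE 0.09, adjusted p = 1.66e-05 by limma), named after its value was seen. Of 14 general Wnt targets tested of 15 listed, 6 rose (30.2% of all genes did) and 2 fell (30.1% of all genes did), with a median of 0.11. With median centring without loess 8 rose and 2 fell, at 0.48. Trib2, a pseudokinase, rose by 1.85 (SE 0.08), Ccnd1, which encodes cyclin D1, by 1.51 (SE 0.10), and Myc by 0.71 (SE 0.09), while Jun fell by 1.69 (SE 0.12). The dimmer Trib2 probe stood at 0.19 and did not pass (adjusted p = 0.0795 by limma). Of all 79 genes tested on the 6 lists, 32 rose (as 30.2% of all genes did) and 17 fell (as 30.1% of all genes did), with a median of 0.09. With median centring without loess 45 rose and 9 fell, at a median of 0.44, where the median of all genes was 0.23. In that setting 8535 of all 19802 genes were called higher and 3015 lower.

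Markers of several cell types also differed between null and heterozygous embryoid bodies, where 30.2% of all genes rose and 30.1% fell. The 5 early mesoderm markers rose, of which Mesp1, T and Tbx6 also stand on the list of streak targets, and their summed intensity ran from 3189 to 3505 in null embryoid bodies, against 648 to 714 in heterozygous ones, where T and Mixl1 were not well above background on any array. These 2 passed the filter through the null channel alone, and the other 3 were called higher when both channels were required above background. All 4 neural progenitor markers tested rose, with sums from 3806 to 5009 in null embryoid bodies, against 864 to 982 in heterozygous ones, and 3 rose whichever replicate was left out. Pax6, also on that list, was not tested, as neither of its probes passed the filter. Sox1 was dim, at 0.25 (SE 0.09, adjusted p = 0.0458 by limma), and its second probe stood at -0.02 (adjusted p = 0.845). All 5 pluripotency markers rose, with sums from 41416 to 47353 in null embryoid bodies, against 18965 to 22363 in heterozygous ones, and 4 rose without replicate 2. The dimmest probe of Nanog, 1 of these markers, was called lower, at -0.34 (adjusted p = 0.00882 by limma). All 5 cardiomyocyte markers fell, with sums from 19295 to 24921 in null embryoid bodies, against 111272 to 127460 in heterozygous ones (2 arrays with all 5 markers), among them Myh6 at -5.31 (SE 0.14). All 5 visceral endoderm markers fell, with sums from 7192 to 10841 in null embryoid bodies, against 43776 to 59674 in heterozygous ones. Of 5 fibroblast markers, which feeder cells could also supply, 4 rose, with a sum of 50164 in null and 22150.0 in heterozygous embryoid bodies on the 1 array that had all 5. Without replicate 1, 2 of the 4 fibroblast markers then tested rose. Each sum weighs the brightest markers of its list most, such as Dppa5a, Actc1 and Col1a2. The part of these cell types in the ratios of the 10 genes was not tested.

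Across all named genes, those whose 3 array ratios lay nearest to those of Sp8 (smallest Euclidean distance) were Sp5, Eomes and Penk, at distances of 0.22, 0.26 and 0.36. Eomes, a T-box factor of the primitive streak, had ratios of 2.22, 2.64 and 2.69. Nearest to Rnf43 were Grb14, Myom1 and Clps, at 0.06, 0.07 and 0.09. Myom1, a protein of the sarcomere's M-band, had ratios of -1.87, -2.03 and -2.30, beside -1.90, -2.08 and -2.26 for Rnf43. With 3 arrays these distances describe the size of a ratio more than a pattern.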

How the data were processed

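Per the file headers, Agilent Feature Extraction 11.5.1.1 made the deposited intensity values of each spot (foreground, local background and processed signal per channel), whereas 8.5.1.1 is the version in the submitters' processing notes. A table of log2 ratios was also deposited by the authors, and its centring and normalization are not stated. Across the probes kept, it correlated with the ratios of the main setting, before replicate 3 was turned, at r = 0.959, 0.951 and -0.941. Replicate 3 therefore runs the other way in it, and that direction was taken. The scanner's log10 ratios, made by the software per the file headers, enter no result here. All 3 arrays shared 1 slide and 1 scan time, so neither could be a block.

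With limma 3.58.1 in R 4.3.3, median foreground and background signals went through normexp (offset 50), and ratios were normalized by loess within arrays, with control and outlier spots at weight 0. Channel intensities given are those after loess and Aquantile scaling, and a bound ("at least") sets the dim channel to the higher of its own signal and the lowest signal well above background. Probes well above background on all 3 arrays in the null or in the heterozygous channel were kept, and 24552 of 39429 were tested against 0 with lmFit and eBayes. SEs are moderated. A gene took its brightest probe. Names came through accessions of a RefSeq table (GRCm38.p6), which named 28025 probes (71.1%).

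The genes, the lists and the tests were chosen with earlier results of these data known. Named are the 10 genes, Hopx, Ctnnb1, Tcf7l1, Tcf7l2, Lgr4, T and Myh6, up to 4 called genes of each pathway list with the largest change, and the 3 genes nearest to the highest and lowest of the 10. The test was tried on simulated ratios. Alternatives covered background, normalization, filter, variance, arrays, pairing, direction, dye and probe rule.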

Additional observations from a re-analysis of the deposited data

How the results depend on the processing

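Of the 10 genes, all kept their direction and side of the threshold with a dye term, with no filter on dim probes, on processed signals, without replicate 1 and without replicate 3. Requiring both channels above background left 9 genes tested, without Axin2, each as before. Leaving out each replicate in turn gave 8 to 9 called genes of the 10, and 9810 to 11826 called genes in all. With each channel fitted as its own sample and no replicate block, 8 of the 10 and 41.1% of all genes were called (adjusted p = 0.0960 for Axin2). The averaged probes gave 1.32 for Sp8. Averaging the probes turned Nkd2 to 0.0548 (adjusted p = 0.569), because its probes differ in sign. Lgr4, not called, turned to -0.0034 with processed signals and -0.0297 in the authors' deposited values, and averaging turned Tle1 to 0.3939. Median centring without loess turned Lrp5 to 0.0094, Tle1 to 0.0724, Tle5 to 0.1083 and Sp4 to 0.069.

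By the ordinary t statistic there were calls for 3998 genes (1964 higher, 2034 lower), 5 of the 10 (1 of them lower) and 17 pathway genes (13 higher, 4 lower), since it shares no spread between probes. Asking for at least 2-fold left by construction 2158 genes (964 higher, 1194 lower), 3 of the 10 (2 higher, 1 lower) and 18 pathway genes (13 higher, 5 lower). The authors' deposited values gave 3914 genes higher. Median centring without loess gave 3015 genes and 9 pathway genes lower, and the split of calls was 8535 higher to 3015 lower, against 5977 to 5966 in the main setting. The cause was not tested. With replicate 3 as labelled, 0 genes, 0 of the 10 and 0 pathway genes were called by limma in either direction, 61 genes and 0 of the 10 had an unadjusted p under 0.05, and Sp2 stood at -0.0055 and Sp4 at 0.1201. That setting averages arrays of opposing sign. Dim signal limits what Axin2, Znrf3, Lgr5 and the second probes of Sp8, Nkd1 and Axin2 can show.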
